A study of Procambarus virginalis with 3 samples.

Results

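Wide accessible regions, here peaks of 1000 to under 5000 bp, were examined in the chromatin accessibility map of marbled crayfish (*Procambarus virginalis*) hemocytes. They were chosen by their length, which is the end minus the start of a peak in the merged ATAC-seq peak list, and 3424 of 89155 peaks (3.84%) met this rule. The map was generated from 3 independent wild catches of a parthenogenetic species whose animals are clonal, and the libraries form 1 group with no control and no treatment. The libraries were prepared from 50000 hemocytes, taken from about 500 µL of hemolymph per animal, with a transposition time of 20 min. The authors pooled the libraries, so every value below describes the pool. No spread between animals can be given, and the intervals cover counting error over peaks only. The wide regions were compared with the 41953 peaks of 200 to under 1000 bp, which are termed ordinary peaks in the following. Peaks under 200 bp (43446) and peaks of 5000 bp or more (332) belong to neither class.

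ATAC-seq uses the Tn5 transposase, which inserts sequencing adapters where DNA is not tightly wrapped around nucleosomes. Short accessible sites typically correspond to single regulatory elements such as promoters or enhancers, at which bound proteins displace a few nucleosomes. Stretches of a kilobase or more can hold several such elements side by side, and in other animals they are known from highly transcribed genes, from clusters of enhancers and from some repeats. Hemocytes are the circulating immune cells of crustaceans and can be analyzed without dissociating a tissue. The regions carry no gene names, so hemocyte markers were not examined, and it is not stated here whether a region lies in an exon, an intron or outside genes. Scaffold positions below are 1-based and refer to the draft assembly. Its version was not given.

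The depth behind the values was inferred from the list itself. The most frequent and lowest fold enrichment, 2.46, was matched by a pileup of 11 fragments over 3.88 background fragments. If this background applies to all peaks, the median wide region was covered by 40.9 fragments on average, against 24.05 fragments for the median ordinary peak. At a single position, a count of 41 fragments has an exact 95% Poisson interval of 29.4 to 55.6, and a count of 24 fragments has an interval of 15.4 to 35.7. The weakest wide region corresponded to 11.6 fragments. No 2 peaks of the list overlapped, and no gap between peaks was shorter than 257 bp. Stretches closer than this do not appear as separate peaks, which bounds the distance between a wide region and its neighbour from below.

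Most wide regions were only slightly longer than the limit. Their lengths had a median of 1376 bp (interquartile range 1133 to 1918.5 bp), and 1988 regions (58.1%) were shorter than 1500 bp. At the other end, 130 regions measured 3000 to 3499 bp, 102 measured 3500 to 3999 bp, 73 measured 4000 to 4499 bp and 48 measured 4500 bp or more. Within the class, the numbers thus declined steadily with length and showed no separate group of long regions. This decline was not shown to continue beyond the upper limit. The 332 peaks of 5000 bp or more had a median length of 6127.5 bp (interquartile range 5793.5 to 6863.5 bp). The median fold enrichments on either side of each limit of the rule were close. The 78 regions less than 10 bp above the lower limit had a median fold enrichment of 7.27, and the 79 peaks within 10 bp below it had 6.76. At the upper limit, the 8 regions within 100 bp below had a median of 6.95, and the 11 peaks less than 100 bp above had 6.57. The numbers of peaks in these narrow bins were similar on both sides of each limit. Such bins cannot show whether a limit lies in a wider dip of the length distribution. The interquartile ranges of fold enrichment were 4.14 to 17.4 just above the lower limit and 4.65 to 10.9 just below it. Groups this small and spread out could have hidden a step in fold enrichment.

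Together the wide regions covered 5.87 Mb, or 19.2% of the accessible length, against 17.2 Mb (56.2%) for the ordinary peaks. When fold enrichment was multiplied by length and summed over the list, wide regions held 29.2% of the sum and ordinary peaks 47.2%. Length is part of both measures and was used to choose the class, so these shares are a description.

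Fold enrichment is the pileup of fragments over the local background of the peak caller, averaged along the peak. Among wide regions it ranged from 2.57 to 1490, with a median of 8.57 (95% order-statistic interval 8.26 to 9.01). Among ordinary peaks it ranged from 2.46 to 947.2, with a median of 5.13 (interval 5.08 to 5.18). The ratio of the medians was 1.67. The spread was also larger among wide regions. Their 90th percentile was 9.32 times their 10th percentile (32.5 and 3.48), whereas this ratio was 6.24 for ordinary peaks (17.9 and 2.86). The ordinary 10th percentile lies closer to the lower limit of the list (2.46). How far this limit narrows the ordinary spread was not tested. Length and fold enrichment come from the same calls, so these values describe the classes and were not tested. A fold enrichment of 10 or more was found for 1507 wide regions (44.0%, exact binomial 95% interval 42.3 to 45.7%), for 9643 ordinary peaks (23.0%, interval 22.6 to 23.4%) and for 15.9% of all peaks. Values under 4 were found for 576 wide regions (16.8%, interval 15.6 to 18.1%) and 14733 ordinary peaks (35.1%, interval 34.7 to 35.6%). A wide region was therefore not necessarily a strong one, and the distributions overlapped over most of their range.

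**Figure D1:**
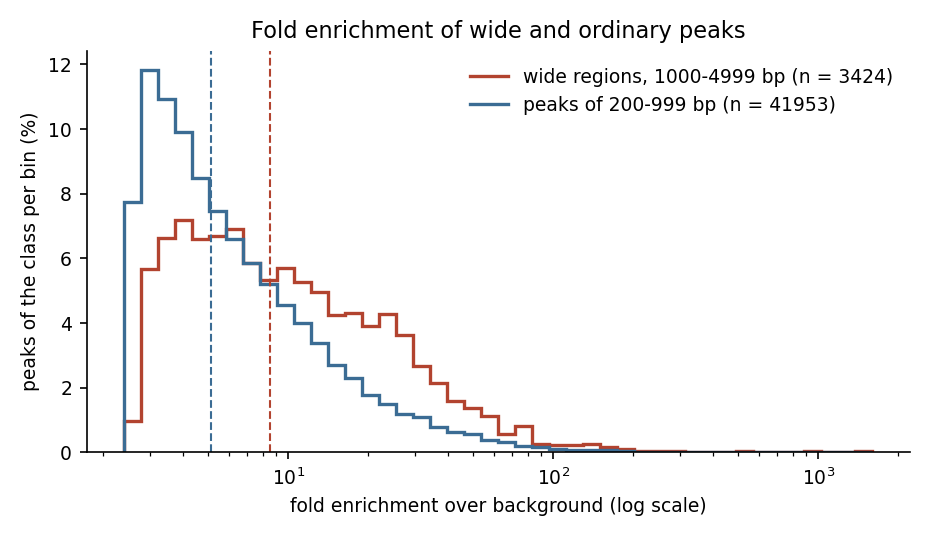
Share of peaks per bin of fold enrichment over background (log scale) for the 3424 wide regions and the 41953 ordinary peaks of 200 to under 1000 bp, with dashed lines at the medians of 8.57 and 5.13. The wide regions form a flatter distribution with more values between 10 and 50, but both classes begin near the lower limit of the list.

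Within the class, longer regions tended to be stronger up to about 4 kb. The median fold enrichment was 7.57 (interval 7.01 to 7.96) for the 1312 regions of 1000 to 1249 bp and 7.64 (interval 6.84 to 8.13) for the 676 regions of 1250 to 1499 bp. These neighbouring bands did not differ beyond their intervals. It was 8.98 (interval 7.85 to 9.94) for the 646 regions of 1500 to 1999 bp, 12.0 (interval 10.6 to 13.8) for the 437 regions of 2000 to 2999 bp and 17.1 (interval 12.5 to 19.4) for the 232 regions of 3000 to 3999 bp. The 121 regions of 4000 bp or more had a median of 14.7 (interval 11.8 to 17.5), which overlapped with that of the preceding band. The share with a fold enrichment of 20 or more was 15.9% in the shortest band and 41.8% at 3000 to 3999 bp. Across single regions the relation was weak, with a Spearman's rho of 0.181 between length and fold enrichment (3424 regions of 1 pooled map, given as a description). In the band of 3000 to 3999 bp, for example, the interquartile range ran from 6.21 to 27.8.

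**Figure D2:**
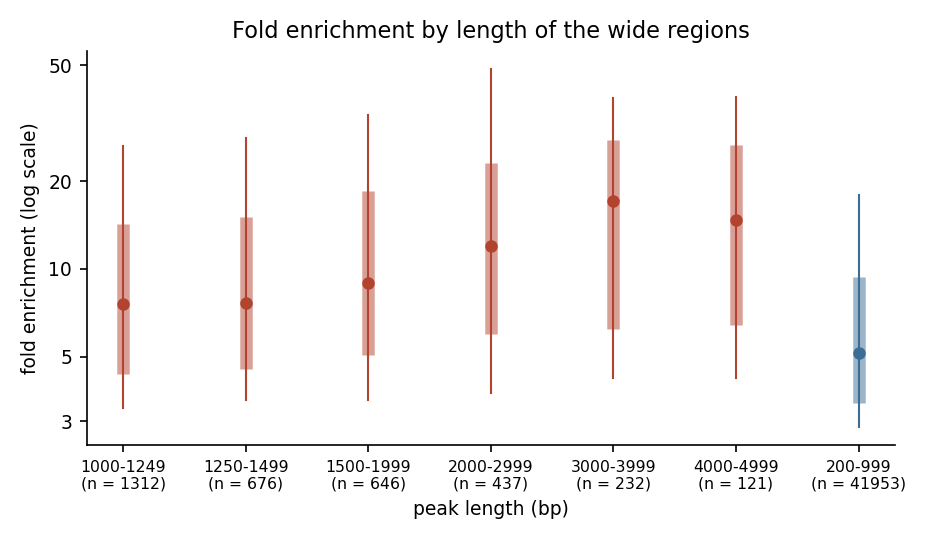
Fold enrichment (log scale) of wide regions in 6 length bands and, on the right, of ordinary peaks of 200 to under 1000 bp. Points are medians, thick bars interquartile ranges over peaks and thin lines the 10th to 90th percentile. The median was 7.57 in the shortest band and 17.1 at 3000 to 3999 bp, and the ranges of all bands overlapped.

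The strongest wide region covered positions 1 to 4123 of scaffold129238, with a fold enrichment of 1490 and, at the assumed background, a mean of 7276 fragments. No other peak was found on its scaffold, whose first base was also the start of the region. The next was found on scaffold21089 at 8398 to 9471, with a length of 1074 bp and a fold enrichment of 887.7. Next in strength came a region of 2594 bp on scaffold202532 at 47996 to 50589 (fold enrichment 498.7), a region of 4553 bp on scaffold113356 at 8686 to 13238 (299.1) and a region of 3406 bp on scaffold22812 at 5503 to 8908 (289.7). Very strong wide regions were thus found at short and long lengths alike. A fold enrichment of 100 or more was reached by 39 wide regions (1.14%), by 172 ordinary peaks (0.410%) and by 230 of all peaks (0.258%). The 39 wide regions lay on 39 different scaffolds and had a median length of 1698 bp (maximum 4553 bp). Of these, 25 had another peak within 5 kb and 4 were the only peak of their scaffold.

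The 3 longest wide regions differed in strength. A region of 4982 bp on scaffold301553 at 3833 to 8814 had a fold enrichment of 29.3, above the 75th percentile of the class (18.0). The second covered 4973 bp (scaffold87039, 9820 to 14792) and reached 5.15, and the third covered 4944 bp (scaffold33161, 73319 to 78262) and reached 7.95. These 2 lay below the class median of 8.57, with 24.1 and 37.8 fragments at the assumed background.

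To see whether this difference in strength also held locally, wide regions were compared with ordinary peaks of the same scaffold. Both classes were present on 2142 scaffolds. The median fold enrichment of the wide regions was higher than that of the ordinary peaks on 1552 of these (72.5%, interval 70.5 to 74.3%). The median ratio was 1.59 (interquartile range over scaffolds 0.942 to 3.34). On the other 590 scaffolds, the median of the wide regions was not above that of the ordinary peaks.

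Wide regions had closer neighbours than ordinary peaks. A region was the only peak of its scaffold in 349 cases (10.2%, interval 9.20 to 11.3%), against 5479 ordinary peaks (13.1%, interval 12.7 to 13.4%). For the other 3075 wide regions, the median distance from border to border to the nearest peak was 2340 bp (interval 2113 to 2607 bp, interquartile range 610.0 to 7964 bp). For the other 36474 ordinary peaks, it was 3868 bp (interval 3763 to 3982 bp, interquartile range 947.0 to 10751.5 bp). This distance depended on the weak peaks of the list, and it was 5497 bp for wide regions (interval 5071 to 6005 bp) among peaks with a fold enrichment of 4 or more. The distance for ordinary peaks under this minimum is not given here, so the class difference in distance is shown for the full list only. A neighbour closer than 500 bp was found for 625 wide regions (18.3%) and for 4871 ordinary peaks (11.6%). Within the class, the distance differed little with length (rho of -0.0545 over 3075 regions).

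Within 5 kb, another peak was found for 1981 wide regions (57.9%, interval 56.2 to 59.5%) and for 20230 ordinary peaks (48.2%, interval 47.7 to 48.7%). The difference was 9.64 percentage points (Newcombe 95% interval 7.91 to 11.3, counting error only). Among peaks with a fold enrichment of 4 or more, the shares were 37.5% for wide regions and 29.6% for ordinary peaks. The comparison was sensitive to the choice of scaffolds. Wide regions lay on scaffolds with a median of 5 peaks (interquartile range 3 to 9) and ordinary peaks on scaffolds with a median of 4 (2 to 8). When only the 2142 scaffolds with both classes were used, the shares were 67.6% for wide regions and 68.4% for ordinary peaks, and the difference was -0.828 percentage points (interval -2.92 to 1.23). On these scaffolds each ordinary peak shares its scaffold with at least 1 wide region, and each wide region with at least 1 ordinary peak. Either counts as a neighbour when it lies within 5 kb. The 2656 wide regions and 7353 ordinary peaks were pooled and not matched by scaffold. Scaffolds with many ordinary peaks therefore weigh more in the ordinary share. A surplus of neighbours around wide regions was thus seen across the list as a whole. It was not seen in this pooled comparison on scaffolds with both classes.

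Smaller peaks around a wide region, here termed satellites, were then counted. A satellite is a peak on the same scaffold that is shorter than the central peak and lies within 5 kb of its border. At least 1 satellite was found for 1913 wide regions (55.9%, interval 54.2 to 57.5%), and at least 3 were found for 429 (12.5%, interval 11.4 to 13.7%). For ordinary peaks, the corresponding numbers were 15707 (37.4%, interval 37.0 to 37.9%) and 1338 (3.19%, interval 3.02 to 3.36%). Part of this difference follows from the definition, because more peaks are shorter than a wide region than are shorter than an ordinary peak. A common size limit was therefore used as well. A peak under 200 bp lay within 5 kb of 1067 wide regions (31.2%, interval 29.6 to 32.7%) and of 11258 ordinary peaks (26.8%, interval 26.4 to 27.3%). The difference was only 4.33 percentage points (interval 2.74 to 5.95), against -0.256 (interval -2.34 to 1.86) where both classes shared a scaffold. The shares on those scaffolds were 34.0% for wide regions and 34.2% for ordinary peaks. Without peaks of fold enrichment under 4, the difference was 0.874 (interval -0.276 to 2.12).

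Satellites were not arranged on a particular side. Of the 1913 wide regions with satellites, 702 had them only towards the scaffold start, 653 only towards the scaffold end and 558 on both sides. Satellites on both sides were found for 16.3% of all wide regions and for 5.89% of ordinary peaks. Part of this difference again follows from the definition of a satellite, and no common size limit was applied here. The median satellite of a wide region was 271 bp long (interquartile range 138.0 to 503.0 bp) and lay 1765 bp from its border. Most satellites were weaker than the region they accompanied. The fold enrichment of the satellite was lower in 2779 of 3605 pairs, and the median ratio of wide region to satellite was 1.62. Among ordinary peaks, the satellite was lower in 14431 of 22279 pairs, with a median ratio of 1.22. A satellite is shorter than its central peak by definition, and shorter length classes of the list had lower median fold enrichments. A weaker satellite can therefore follow from the definition. The median fold enrichment of the satellites was close in both classes, with 3.612 for wide regions and 3.595 for ordinary peaks. The larger ratio for wide regions thus does not show that their satellites were weaker.

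Peaks close to wide regions were also weaker than peaks of the same size elsewhere. The 1772 peaks of 200 to under 1000 bp within 5 kb of a wide region had a median fold enrichment of 4.26 (interval 4.07 to 4.40). Those on the same scaffolds but farther away had a median between 4.89 and 5.11 (95% interval, 5581 peaks), and those on scaffolds without a wide region had 5.21 (interval 5.16 to 5.27, 34600 peaks). Among peaks under 200 bp, the medians were 3.27 (interval 3.19 to 3.33, 1316 peaks) within 5 kb, 3.47 (interval 3.41 to 3.51) farther away on the same scaffolds and 3.63 (interval 3.61 to 3.64) on the other scaffolds. The order was the same in both size classes, although the differences were small compared with the spread over peaks. Peaks near ordinary peaks only were not set apart, so the lower strength is not shown to be particular to the surroundings of wide regions. Among ordinary peaks, another peak within 5 kb was more frequent at a fold enrichment under 4 (53.4%) than at 32 or more (41.0%).

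How far the surplus of neighbours extended was examined in the flank towards the scaffold start. Only peaks starting beyond 20 kb were used for this profile, so that the whole flank lay on the scaffold (1825 wide regions and 23612 ordinary peaks). Between 257 and 500 bp from the border, there were 23.9 peaks of 200 to under 1000 bp per 100 kb of flank around wide regions (exact Poisson 95% interval 19.6 to 28.9) and 12.8 around ordinary peaks (interval 11.9 to 13.8). Between 4 and 5 kb, the densities were 5.37 (interval 4.36 to 6.54) around wide regions and 3.54 (interval 3.31 to 3.79) around ordinary peaks. Between 15 and 20 kb, they were 3.85 (interval 3.45 to 4.27) and 2.94 (interval 2.84 to 3.04), so that a smaller surplus was still present at the far end of the window. The profile was not restricted to scaffolds with both classes. How far it reflects scaffolds with more peaks was not tested. For peaks under 200 bp the surplus was smaller. The densities between 257 and 500 bp were 15.1 (interval 11.7 to 19.2) around wide regions and 9.62 (interval 8.83 to 10.5) around ordinary peaks, and the intervals of the classes overlapped at all greater distances except between 4 and 5 kb.

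**Figure D3:**
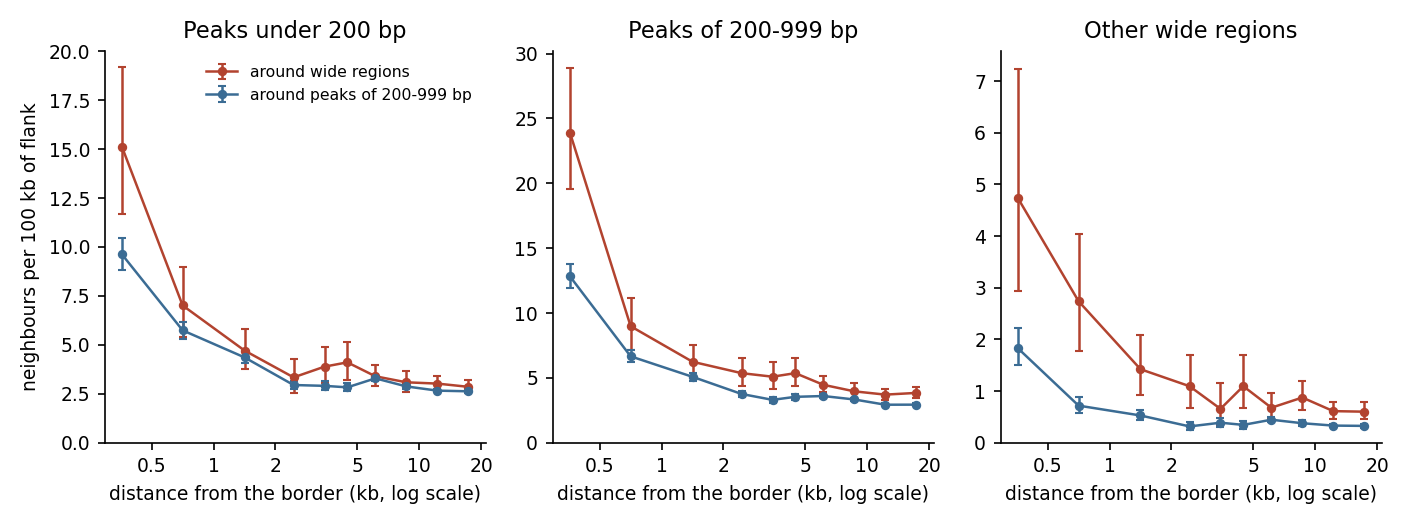
Density of neighbouring peaks in the flank towards the scaffold start, as peaks per 100 kb of flank (linear axis from 0) against the distance from the border of the central peak (log scale), for 1825 wide regions and 23612 ordinary peaks. The panels show neighbours under 200 bp, of 200 to under 1000 bp and of 1000 to under 5000 bp, and error bars are exact Poisson 95% intervals. Wide regions lie above ordinary peaks in each panel near the border, with 23.9 against 12.8 neighbours of 200 to under 1000 bp per 100 kb between 257 and 500 bp.

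Close neighbours were most frequent at the weakest wide regions. Another peak within 5 kb was found for 67.7% of wide regions with a fold enrichment under 4 (interval 63.7 to 71.5%, 576 regions). The share was 58.5% at 4 to under 8 (interval 55.4 to 61.5%), 51.9% at 8 to under 16 (interval 48.5 to 55.4%) and 53.7% at 16 to under 32 (interval 49.7 to 57.7%). It was 61.3% at 32 or more (interval 56.0 to 66.4%, 354 regions). Wide regions of intermediate strength thus had the fewest neighbours. Among ordinary peaks, the share was 53.4% for the weakest (interval 52.6 to 54.2%), 43.4% at 8 to under 16 (interval 42.3 to 44.5%) and 41.0% for the strongest (interval 38.6 to 43.4%), so that the share did not increase again. Over the list as a whole, the class difference was therefore present in each of these bands and amounted to 20.3 percentage points among the strongest peaks.

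**Figure D4:**
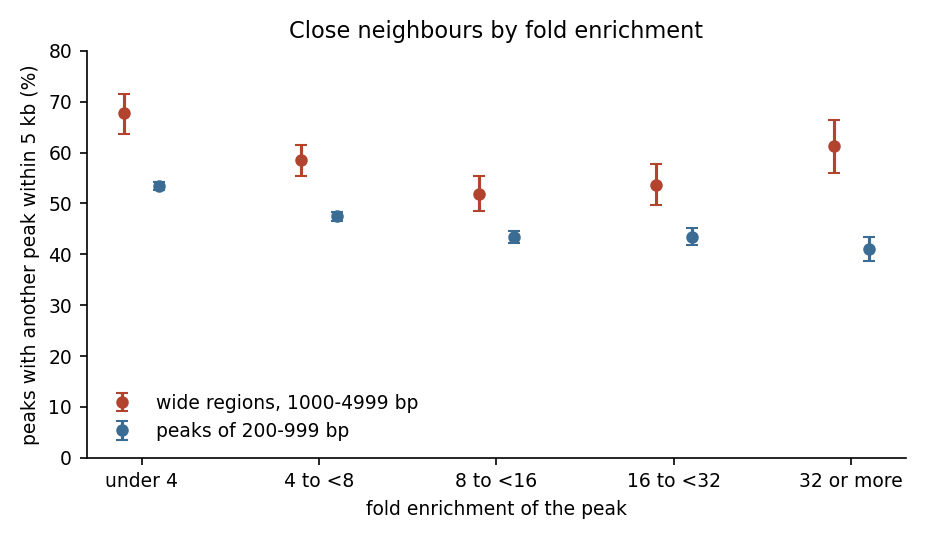
Share of peaks with another peak within 5 kb (in percent, axis from 0) in 5 classes of fold enrichment, for wide regions and ordinary peaks of 200 to under 1000 bp. Error bars are exact binomial 95% intervals for counting error. Wide regions lie above ordinary peaks in each class, and their share is lowest at 8 to under 16 (51.9%) and higher again at 32 or more (61.3%).

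The wide regions with the most satellites lay below the median strength of the class. The region on scaffold23724 at 65642 to 67163 (1522 bp, fold enrichment 7.35) had 10 satellites within 5 kb, with fold enrichments of 2.46 to 3.86 and the nearest of them at 305 bp. A region of 1686 bp on scaffold79516 at 5300 to 6985 had 8 satellites and a fold enrichment of 3.20. On scaffold23724, the region at 35576 to 37263 (fold enrichment 2.89) and that at 62909 to 63921 (fold enrichment 2.85) also had 8. The first 2 of these 3 regions with 8 satellites corresponded to 14.6 and 13.1 fragments at the assumed background. More generally, the 84 wide regions with 5 or more satellites had a median fold enrichment of 4.41 (interval 3.57 to 5.62), compared with 9.24 (interval 8.74 to 9.79) for the 1511 regions with none. Of the 84 regions, 46.4% (interval 35.5 to 57.6%) had a fold enrichment under 4, compared with 16.8% of all wide regions. How this depends on the sequencing depth was not tested.

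Wide regions also had other wide regions nearby more often than ordinary peaks did. Another wide region lay within 5 kb of 378 wide regions (11.0%, interval 10.01 to 12.1%) and of 1772 ordinary peaks (4.22%, interval 4.03 to 4.42%). These shares include peaks that could not have such a neighbour, among them 34600 ordinary peaks on scaffolds without a wide region. Only 962 wide regions shared a scaffold with another wide region, and only 7353 ordinary peaks shared one with a wide region. Directly adjacent peaks were also compared, counting each side of a region separately, so that a peak between 2 regions counts for both. Of 4854 such adjacencies of wide regions, 408 (8.41%) were with another wide region. Of 55513 adjacencies of ordinary peaks, 2438 (4.39%) were with a wide region, and wide regions made up 3.84% of the whole list. In the flank profile, the density of wide regions between 500 and 1000 bp was 2.74 per 100 kb around wide regions (interval 1.77 to 4.04) and 0.720 around ordinary peaks (interval 0.575 to 0.890).

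Nevertheless, most wide regions were the only wide region of their scaffold. They were found on 2873 scaffolds, of which 2462 carried 1 wide region, 315 carried 2, 70 carried 3 and 17 carried 4. A further 9 scaffolds carried 5 or more, with a maximum of 9. The 551 pairs of consecutive wide regions were separated by a median of 9602 bp (interval 7754 to 11519 bp, interquartile range 2044.5 to 27567.5 bp). The 20933 pairs of consecutive ordinary peaks were separated by a median of 9130 bp (interval 8885 to 9381 bp, interquartile range 2864 to 22241 bp). The medians did not differ beyond their intervals, although the 41953 ordinary peaks lay on 21020 scaffolds and were thus more numerous per scaffold than the wide regions. Among peaks with a fold enrichment of 4 or more, the spacing of wide regions was 14740 bp, and that of ordinary peaks is not given here. The wide regions had more of both extremes. Spacings under 1 kb made up 16.3% (interval 13.3 to 19.7%) for wide regions and 12.7% (interval 12.3 to 13.2%) for ordinary peaks, and spacings of 50 kb or more made up 10.9% (interval 8.41 to 13.8%) and 6.52% (interval 6.19 to 6.86%). In 204 of the 551 pairs (37.0%), no other peak lay between the wide regions.

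Wide regions that shared a scaffold were weaker than solitary ones. The 2462 regions that were alone in their class on a scaffold had a median fold enrichment of 9.20 (interval 8.70 to 9.63). The 630 regions on scaffolds with 2 had 7.59 (interval 7.08 to 8.68), and the 332 regions on scaffolds with 3 or more had 5.97 (interval 5.16 to 6.92). A fold enrichment under 4 was found for 14.1% of solitary wide regions (interval 12.8 to 15.6%) and for 33.7% of those on scaffolds with 3 or more (interval 28.7 to 39.1%). Values of 10 or more were nevertheless present in 34.9% of the regions on scaffolds with 3 or more.

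Wide regions that lay close together resembled each other in strength. For the 90 pairs less than 1 kb apart, Spearman's rho between their fold enrichments was 0.539, and 59 pairs (65.6%, interval 54.8 to 75.3%) differed by less than a factor of 2. The coefficient was 0.512 for the 115 pairs at 1 to under 5 kb, 0.261 for the 160 pairs at 5 to under 20 kb and 0.183 for the 186 pairs at 20 kb or more, of which 81 (43.5%, interval 36.3 to 51.0%) were within a factor of 2. For consecutive ordinary peaks the same coefficients were 0.216, 0.157, 0.0662 and 0.0327 in the 4 distance classes. However, 67.1% of ordinary pairs under 1 kb (interval 65.2 to 68.9%) were within a factor of 2, and 55.1% at 20 kb or more (interval 53.8 to 56.4%). By this share, close ordinary peaks were as alike as close wide regions. These coefficients and shares are descriptions of 1 pooled map in which all regions share the libraries and their depth. When both regions of a pair were required to have a fold enrichment of at least 4, rho was 0.410 for the 95 pairs under 5 kb and 0.0521 for the 242 pairs farther apart. Lengths showed no such relation (rho of 0.0310 over all 551 pairs).

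The closest pair was found on scaffold89016, where regions at 23414 to 25395 and 25666 to 27615 were separated by 270 bp. Their lengths were 1982 and 1950 bp and their fold enrichments 5.50 and 7.17. This gap is only slightly above the minimum of 257 bp between any peaks of the list. The scaffold with the most wide regions was scaffold29867, with 9 wide regions among 28 peaks. The wide regions lay between positions 35657 and 119562. These 9 were 1016 to 3319 bp long and had fold enrichments of 3.05 to 6.47, all below the class median. On scaffold8003, 7 wide regions among 17 peaks had fold enrichments of 3.61 to 5.33 with 1 exception, the region of 1728 bp at 38705 to 40432, which reached 41.5. On scaffold323980, 6 wide regions among 18 peaks lay within 21 kb, at 11691 to 32854, with fold enrichments of 2.89 to 3.26. The same number of 6 was reached on 2 further scaffolds, which covered less length and were named after their values were seen. On scaffold8338, the 6 wide regions had fold enrichments of 18.9 to 38.2 (median 26.6), all above the class median. On scaffold36134, the values ranged from 2.57 to 55.0 (median 7.07). Scaffolds with many wide regions thus included series of weak, of strong and of unequal ones.

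**Figure D5:**
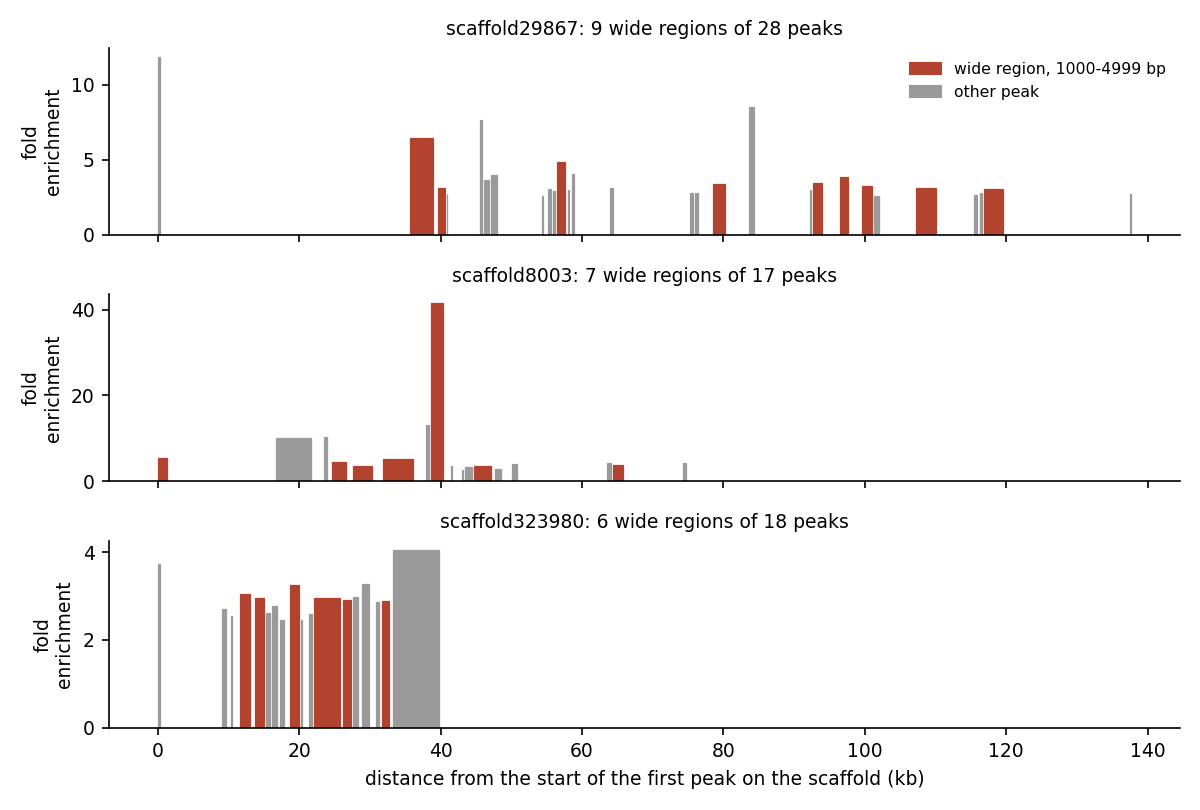
All peaks on scaffold29867, scaffold8003 and scaffold323980, which carried 9, 7 and 6 wide regions (2 further scaffolds with 6 are not shown), drawn to scale as bars whose width is the peak length and whose height is the fold enrichment (linear axis from 0, different for each scaffold), against the distance from the first peak in kb. Wide regions are shown in red and other peaks in grey. On scaffold29867 and scaffold323980 all wide regions stay below a fold enrichment of 7, and on scaffold8003 a single one reaches 41.5.

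Finally, the position on the scaffold was examined, since a region at the end of a scaffold can extend beyond the assembled sequence. A start within the first kb was found for 391 wide regions (11.4%, interval 10.4 to 12.5%) and for 4642 ordinary peaks (11.1%, interval 10.8 to 11.4%), a difference within the counting error. In both classes, fewer peaks started in the second kb, with 94 wide regions (2.75%) and 1630 ordinary peaks (3.89%). In the first 100 bp, the shares were 5.02% (172 wide regions, interval 4.32 to 5.81%) and 3.67% (1539 ordinary peaks, interval 3.49 to 3.85%). Wide regions starting in the first kb were more frequent at 1000 to 1249 bp (13.9%) than at 4000 bp or more (6.61%, 8 of 121 regions). The wide regions of the first 100 bp had a median fold enrichment of 9.57, compared with 8.85 for those starting beyond 5 kb, and the corresponding values for ordinary peaks were 7.26 and 5.07. Scaffold lengths were not used, so the distance to the other end was not analyzed.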

How the data were processed

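Hemocyte DNA of 3 animals was analyzed by ATAC-seq. The authors trimmed reads with Trim Galore, aligned them with Bowtie2, removed duplicates with samtools, called broad peaks with MACS2 and pooled the libraries. The deposited fold values are linear ratios of pileup over local background, averaged along each peak, and the deposited p-values and q-values are given as −log10. The sources used here do not state the caller version, its settings or the assembly version. Peaks near the caller's limit depend most on depth, and joining of nearby stretches affects lengths and gaps.

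The list was read with pandas 2.3.3 in Python 3.11.15, and intervals were computed with scipy 1.17.1. The members and comparisons were chosen with earlier results of these data known. Distances run from border to border on the same scaffold, and starts were converted to count from 1. Named regions comprise the 5 of highest fold, the 3 longest, the 3 with the most satellites, the closest pair and the 3 scaffolds with the most wide regions. Ties were resolved by fold for satellites, where 3 regions shared the last place, and by covered length for scaffolds, where 3 shared it. Medians have order-statistic intervals, shares exact Clopper-Pearson intervals, differences of shares Newcombe intervals and densities exact Poisson intervals, all at 95%. They treat peaks as independent, cover counting error only and were not used as tests. No p-values were computed, because the pooled list leaves no replicates. The scripts were checked on simulated data. Alternatives changed the score or fold minimum, the lower length limit, the joining of peaks, the window, the scaffolds used and the definition of distance.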

Additional observations from a re-analysis of the deposited data

How the results depend on the processing

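Leaving out single libraries could not be run, because the libraries are pooled in 1 list. No paired analysis was possible because the list carries no values per library. Among wide regions, the median fold enrichment, the share at 10 or more and the ratio of medians to ordinary peaks were 10.1, 50.3% and 1.42 with a −log10 q of at least 5, and 10.7, 52.9% and 1.42 with a fold enrichment of at least 4. They were 7.07, 36.7% and 1.37 after joining peaks under 500 bp apart, and 11.0, 53.0% and 2.14 for 1436 regions from 1500 bp. Without the strongest 1%, the median was 8.19 and the share 41.7%. The median distance to the nearest peak was 4982, 5497, 3740 and 1993.5 bp with the q minimum, the fold minimum, joining and the limit of 1500 bp. It was 1838 bp on scaffolds with 3 or more peaks and 3551 bp from centre to centre. Spacing was 13649, 14740 and 11529 bp with the q minimum, the fold minimum and centres. Scaffolds with several wide regions numbered 630 after joining and 118 from 1500 bp.

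The shares of wide regions with any peak and with a smaller peak nearby were 40.4% and 37.7% with the q minimum, 37.5% and 34.9% with the fold minimum, 50.5% and 47.7% after joining and 61.9% and 60.5% from 1500 bp. They were 61.0% and 59.0% without the first 5 kb of scaffolds, 69.8% and 67.4% with 3 or more peaks on the scaffold, 42.1% and 40.4% for the flank towards the start, 42.6% and 40.6% within 2 kb, 70.7% and 69.4% within 10 kb, and 53.4% for any peak with centres. Differences to ordinary peaks, in percentage points, were as follows. For any peak they were 7.90 with the fold minimum, 13.7 from 1500 bp, 6.62 within 10 kb and 6.90 with centres. For smaller peaks they were 16.5 with the q minimum, 15.8 with the fold minimum, 23.1 from 1500 bp, 16.1 within 2 kb and 16.2 within 10 kb. For peaks under 200 bp they were 1.14 with the q minimum, 0.874 with the fold minimum, 2.40 after joining, 6.03 from 1500 bp and 2.68 within 2 kb. On scaffolds with both classes, an alternative chosen after seeing the data, the shares were 67.6% and 65.4%, and the differences for any peak and for peaks under 200 bp reversed to -0.828 and -0.256. Thresholds remove neighbours and joining merges them by construction. The cause of the reversals was not tested. Wide regions numbered 2998 with the q minimum, 2848 with the fold minimum, 3286 without the strongest 1% and 4859 after joining, against 3424. Scaffolds with several numbered 323, 294 and 390 under the first 3 of these settings, against 411. The other values stayed within the intervals of the deposited list.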

Other observations

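The 332 peaks of 5000 bp or more, which lie beyond the upper limit of the wide regions, had a median fold enrichment of 15.97 (95% order-statistic interval 13.1 to 18.0), and 210 of them (63.3%) reached 10 or more. They lay on 328 scaffolds, and the longest measured 29372 bp. A peak of this length was found within 5 kb of 19 wide regions (0.555%, exact interval 0.334 to 0.865%) and of 154 ordinary peaks (0.367%, interval 0.311 to 0.430%), a difference of 0.188 percentage points with a Newcombe interval of -0.0211 to 0.503.

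Restricting solitary wide regions to scaffolds with 3 or more peaks left 1689 regions with a median fold enrichment of 9.22 (interval 8.58 to 9.76). This interval did not overlap that of the 332 regions on scaffolds with 3 or more wide regions (5.16 to 6.92), so their lower strength was also present when sparse scaffolds were left out. A smaller peak within 5 kb was found for 63.8% of the solitary regions (interval 61.4 to 66.1%) and for 79.2% of the regions on scaffolds with 3 or more (interval 74.4 to 83.5%). The number of peaks on the scaffold was not matched further, and scaffold length was not known.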
